A study of Mus musculus with 6 samples.

Results

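The 9 genes described here encode the proteins that take fatty acids from circulating triglyceride into muscle and a pair of mitochondrial uncoupling proteins. They are Lpl, Gpihbp1, Angptl4, Cd36, Slc27a1, Slc27a4, Fabp3, Ucp2 and Ucp3, and they were found by gene symbol as 9 of the 22564 rows of a table of protein-coding transcripts. The table holds mouse quadriceps RNA, depleted of ribosomal RNA, from 3 control and 3 knockout libraries. Control mice were Fbxw7 flox/flox, with a floxed allele on both chromosomes. Knockout mice carried the same floxed alleles together with MCK-Cre, in which the muscle creatine kinase promoter drives the recombinase in muscle. All 6 libraries therefore share the floxed alleles, and since no control carries Cre, an effect of Cre itself and an effect of losing Fbxw7 cannot be told apart. Fbxw7 encodes an F-box protein, the part of a ubiquitin ligase that binds its targets. The sources used here give neither the ages of the mice nor whether each library is a separate animal, so p-values reflect only how far these libraries spread.

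Triglyceride carried by lipoproteins is hydrolysed at the wall of muscle capillaries by lipoprotein lipase, which muscle and fat cells make and which GPIHBP1 carries across the endothelium and holds at its luminal surface. ANGPTL4 inactivates the enzyme. The fatty acids released enter through CD36 and fatty acid transport proteins of the SLC27 family, FABP3 binds them in the cytosol, and acyl-CoA synthetases commit them to oxidation or storage. UCP2 and UCP3 are related carriers of the inner mitochondrial membrane. UCP3 is mostly a skeletal muscle protein, whereas UCP2 is also abundant in immune cells.

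Of the 9 genes, 7 were higher in knockout quadriceps, 1 was lower and 1 did not pass the test. Ucp2, Lpl, Angptl4 and Fabp3 rose, by between 2.03-fold and 3.15-fold. Slc27a4 rose 1.84-fold, and Cd36 and Slc27a1 rose 1.33-fold and 1.27-fold, calls that were lost under median-of-ratios scaling. Ucp3 fell 1.27-fold, while Gpihbp1 differed by a log2 change of -0.11 that missed the threshold. Levels are FPKM, fragments scaled to transcript length and to library size, so they can be compared between genes. Changes were tested by limma on log2(FPKM + 0.1), with p-values adjusted by Benjamini-Hochberg over the 11659 genes that averaged at least 0.5 FPKM, and a gene was called at an adjusted p under 0.05. All 9 genes passed that filter. The added 0.1 FPKM makes fold changes of low genes slightly smaller on this scale, so folds are given as ratios of mean FPKM.

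These counts stand against a large change across the table. Of all tested genes 24.5% were called raised and 10.1% lowered, and their median log2 change was 0.21. The median of the 9 genes was 0.88. Scaling each library by the median of ratios brought the median of all genes to 0.01 and the background to 14.8% raised and 17.3% lowered. Under it 5 of the 9 were raised and 2 lowered. Quantile normalization gave 14.7% raised and 14.5% lowered, with 5 of the 9 raised and 1 lowered. The 3 knockout values all lay above the 3 control values for 7 of the 9 genes, and for 35.7% of all tested genes. They all lay below for the other 2, and for 14.0% of all tested genes.

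Fbxw7 (ENSMUSG00000028086, chromosome 3, 84815268 to 84979198, plus strand, mm10) measured 6.51, 6.23 and 6.36 FPKM in the controls and 4.02, 3.86 and 3.81 FPKM in the knockouts. Every knockout library was below every control, with a log2 change of -0.69 (SE 0.12, limma adjusted p = 0.0028). An exact two-sided permutation test gave 0.1, the smallest p that 3 libraries against 3 allow. Estimated fragments numbered 8435732 to 11783855 in the control libraries and 3150438 to 6704236 in the knockout libraries, so the knockout values rest on fewer fragments. Among the 9 genes the fewest were 46 fragments, for Angptl4 in knockout 1, and the most were 8945, for Fabp3 in knockout 2. Control 3 had the lowest control value for 7 of the 9 genes, and the highest for Fabp3 and Gpihbp1.

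Lpl (ENSMUSG00000015568, chromosome 8, 68880491 to 68907448, plus strand), which encodes lipoprotein lipase, measured 53.3, 48.6 and 41.5 FPKM in the controls and 110.5, 114.3 and 99.4 FPKM in the knockouts. The groups were far apart, with the lowest knockout well above the highest control. The means were 47.8 ± 5.95 and 108 ± 7.73 FPKM (SD, n = 3 each), a log2 change of 1.18 (SE 0.10, 95% interval 0.94 to 1.42, limma adjusted p = 8.52e-05). Relative to the median change of all genes it was 0.97. Lpl was called under each of 15 alternative settings that kept the threshold, with log2 changes between 0.98 and 1.26.

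Gpihbp1 (ENSMUSG00000022579, chromosome 15, 75596628 to 75599481, plus strand) encodes the endothelial protein that anchors the enzyme. It measured 25.2, 26.0 and 26.5 FPKM in the controls and 23.7, 24.8 and 23.4 FPKM in the knockouts. Every knockout value was below every control, by a narrow margin. The log2 change was -0.11 (SE 0.08, 95% interval -0.30 to 0.07, limma adjusted p = 0.294), or -0.32 relative to the median of all genes. It was called only under median-of-ratios scaling, where the log2 change was -0.32 and the adjusted p 0.0205, while quantile normalization gave -0.19 and 0.0888.

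Angptl4 (ENSMUSG00000002289, chromosome 17, 33773750 to 33781830, minus strand), the secreted inhibitor of lipoprotein lipase and a transcriptional target of fatty-acid-sensing nuclear receptors, measured 3.02, 3.17 and 2.18 FPKM in the controls and 5.73, 7.14 and 5.96 FPKM in the knockouts. Each knockout was above all controls. The means were 2.79 ± 0.535 and 6.27 ± 0.758 FPKM (SD, n = 3 each), a log2 change of 1.15 (SE 0.18, 95% interval 0.74 to 1.56, limma adjusted p = 0.0018), or 0.94 relative to the median of all genes. It was called under each of the 15 settings, with log2 changes from 0.87 to 1.27.

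Cd36 (ENSMUSG00000002944, chromosome 5, 17781690 to 17888801, minus strand), the membrane fatty acid translocase, measured 58.8, 55.5 and 46.0 FPKM in the controls and 78.0, 72.4 and 63.2 FPKM in the knockouts. The lowest knockout and the highest control were close to each other. The means were 53.4 ± 6.61 and 71.2 ± 7.51 FPKM (SD, n = 3 each), a log2 change of 0.42 (SE 0.11, 95% interval 0.15 to 0.68, limma adjusted p = 0.0231) and 0.21 relative to the median of all genes. Median-of-ratios scaling halved the log2 change, to 0.21 with an adjusted p of 0.163. The limma adjusted p was 0.0662 without control 3, 0.0599 without knockout 1 and 0.0681 without knockout 2. It was 0.0512 with no filter on low values and 0.0679 with no trend.

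Slc27a1 (ENSMUSG00000031808, chromosome 8, 71568882 to 71587302, plus strand) encodes FATP1, a fatty acid transport protein with acyl-CoA synthetase activity. It measured 13.03, 13.63 and 12.95 FPKM in the controls and 15.6, 17.1 and 17.7 FPKM in the knockouts. The controls were tightly grouped and all knockouts lay above them. The log2 change was 0.34 (SE 0.09, 95% interval 0.13 to 0.56, limma adjusted p = 0.0233), and 0.14 relative to the median of all genes. The call was lost under median-of-ratios scaling, where the log2 change was 0.14 and the adjusted p 0.231, and under quantile normalization, with 0.20 and 0.0929. It was also lost without any 1 library other than knockout 1, with limma adjusted p between 0.053 and 0.076.

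Slc27a4 (ENSMUSG00000059316, chromosome 2, 29802634 to 29817522, plus strand), which encodes the related transport protein FATP4, measured 2.18, 2.24 and 1.34 FPKM in the controls and 3.38, 3.28 and 3.93 FPKM in the knockouts. The groups did not overlap, and control 3 was clearly below the other controls. The means were 1.92 ± 0.506 and 3.53 ± 0.352 FPKM (SD, n = 3 each), a log2 change of 0.88 (SE 0.22, 95% interval 0.37 to 1.38, limma adjusted p = 0.0164), or 0.67 relative to the median of all genes. Quantile normalization gave 0.55 with an adjusted p of 0.0593, and leaving out knockout 3 gave 0.0536.

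Fabp3 (ENSMUSG00000028773, chromosome 4, 130308595 to 130315463, plus strand), the cytosolic fatty acid binding protein of heart and muscle, measured 637, 663 and 691 FPKM in the controls and 1363, 1330 and 1351 FPKM in the knockouts. It had the smallest spread of the 9 genes relative to its change, and the groups were far apart. The means were 664 ± 26.9 and 1348 ± 16.7 FPKM (SD, n = 3 each), a log2 change of 1.02 (SE 0.05, 95% interval 0.91 to 1.14, limma adjusted p = 4.14e-06), or 0.81 relative to the median of all genes. It was called under each of the 15 settings, between 0.82 and 1.28 on the log2 scale. Its exons share 81 bases with Zcchc17 and 80 bases with Gm10570 on the opposite strand. Whether counting used the strand is not stated. Zcchc17 measured 22.4 ± 2.64 FPKM in controls and 24.3 ± 2.37 FPKM in knockouts (SD, n = 3 each), and Gm10570 0.421 ± 0.202 and 0.885 ± 0.427 FPKM, levels far below that of Fabp3.

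Ucp3 (ENSMUSG00000032942, chromosome 7, 100472990 to 100486432, plus strand) and Ucp2 (ENSMUSG00000033685, chromosome 7, 100493337 to 100502020, plus strand) are adjacent paralogs on 1 strand, with 6904 bases between the end of Ucp3 and the start of Ucp2 in GENCODE M21. They were called in opposite directions. Their promoters are shown because of that contrast, as the 250 bases before each RefSeq start on GRCm38.p6, 5′ to 3′, with each match to CANNTG, the E-box that bHLH factors such as MyoD bind, in capitals.
Ucp2 promoter, chr7:100493108-100493357, plus strand: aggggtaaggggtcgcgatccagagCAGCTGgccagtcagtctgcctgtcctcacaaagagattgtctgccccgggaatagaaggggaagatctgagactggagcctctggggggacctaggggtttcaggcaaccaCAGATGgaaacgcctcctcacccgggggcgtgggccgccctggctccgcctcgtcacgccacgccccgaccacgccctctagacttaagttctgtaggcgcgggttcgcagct
Ucp3 promoter, chr7:100472741-100472990, plus strand: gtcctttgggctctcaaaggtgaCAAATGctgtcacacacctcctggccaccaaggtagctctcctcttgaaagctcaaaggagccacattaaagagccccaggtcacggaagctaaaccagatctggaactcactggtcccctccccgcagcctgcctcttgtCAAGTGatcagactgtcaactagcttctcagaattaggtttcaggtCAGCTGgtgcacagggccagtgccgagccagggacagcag

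Counting the base before the start as -1, CANNTG began at -225 and -113 in the Ucp2 window and at -227, -86 and -40 in the Ucp3 window, and it is found in 66.2% of the 32851 promoters of the table. A GC box, GGGCGG on either strand, began at -79 in the Ucp2 window and was not found in that of Ucp3, against 32.7% of all promoters. GC content was 63.6% in the Ucp2 window and 54.8% in the Ucp3 window. Neither window held CACGTG, a subset of CANNTG found in 6.02% of promoters, or TATAAA, found in 12.4%. A direct repeat of AGGNCA with 1 base between its copies, a form of the element that PPAR receptors bind, was in neither window and in 0.338% of promoters. Both strands were searched for each motif. A match or its lack describes the letters of these windows only.

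Ucp2 measured 7.45, 8.57 and 6.38 FPKM in the controls and 19.3, 22.3 and 29.0 FPKM in the knockouts. Each knockout was more than double the highest control, and knockout 3 stood highest. The means were 7.47 ± 1.10 and 23.5 ± 4.98 FPKM (SD, n = 3 each), a log2 change of 1.63 (SE 0.17, 95% interval 1.25 to 2.02, limma adjusted p = 2.09e-04), or 1.42 relative to the median of all genes. It had the highest log2 change of the 9 genes, and it was called under each of the 15 settings, between 1.43 and 1.77. Ucp2 shares 305 exon bases with Dnajb13 on the opposite strand, which is listed at 0 in 5 libraries and at 0.143 FPKM in knockout 2.

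Ucp3 measured 49.4, 45.0 and 37.9 FPKM in the controls and 34.4, 35.3 and 34.5 FPKM in the knockouts. The knockout values were nearly equal and lay below all controls, of which control 3 was nearest. The means were 44.1 ± 5.77 and 34.8 ± 0.479 FPKM (SD, n = 3 each), a log2 change of -0.33 (SE 0.10, 95% interval -0.57 to -0.10, limma adjusted p = 0.0358). Relative to the median of all genes it was -0.54, and median-of-ratios scaling gave -0.54 with an adjusted p of 0.0021. The call was lost without any 1 library other than control 3, with limma adjusted p between 0.0661 and 0.12. It was also lost with no filter on low values and with no trend, at 0.0595 and 0.088.

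**Figure D1:**
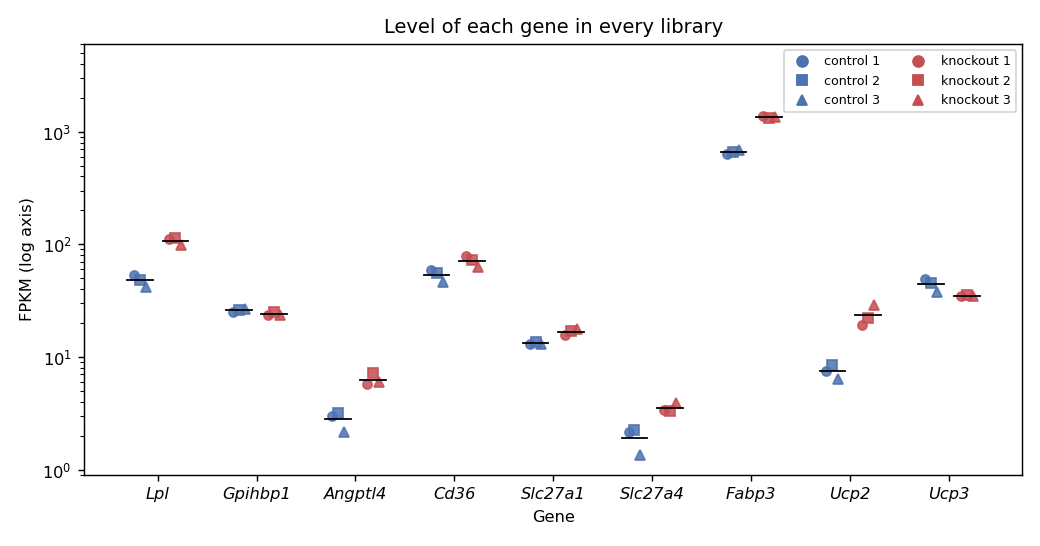
FPKM of the 9 genes on a log axis, with a point for each library and a line at each group mean (n = 3 per group). Fabp3 sits more than an order of magnitude above the other genes in both groups, and the control and knockout points of Ucp2, Lpl, Angptl4 and Fabp3 are well apart.

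Transcript levels per length had a different order in the groups. Fabp3 was the highest in both, 12.4 times the next gene in controls and 12.5 times in knockouts. In controls Cd36, Lpl and Ucp3 followed with overlapping ranges, then Gpihbp1, Slc27a1 and Ucp2 apart from each other, and then Angptl4 and Slc27a4, whose ranges overlapped. In knockouts Lpl, Cd36 and Ucp3 were apart in that order. Gpihbp1 and Ucp2 then overlapped, followed by Slc27a1, Angptl4 and Slc27a4, which did not.

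**Figure D2:**
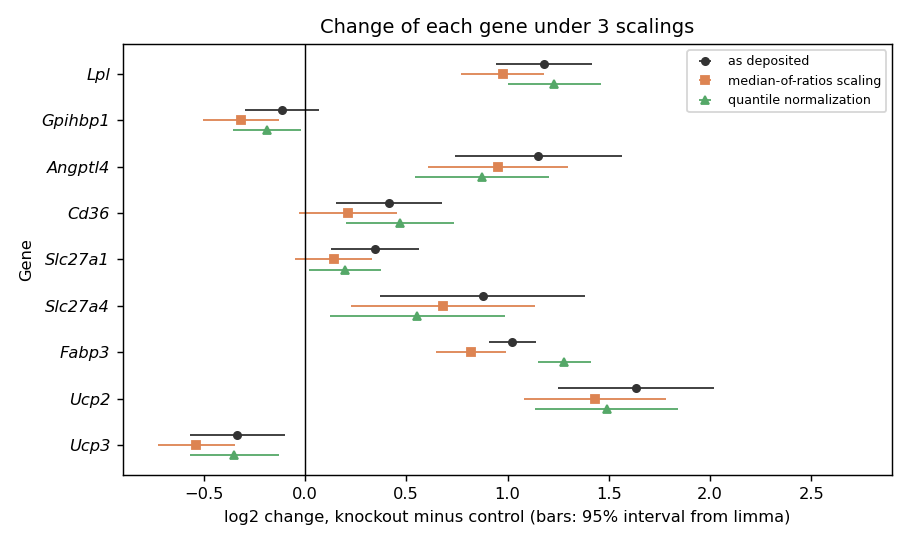
The log2 change of each gene, knockout minus control, with its 95% interval from limma, for FPKM as deposited, after median-of-ratios scaling and after quantile normalization. The intervals of Lpl, Angptl4, Slc27a4, Fabp3 and Ucp2 lie above 0 under all 3 scalings, those of Cd36 and Slc27a1 reach below 0 under median-of-ratios scaling, and that of Ucp3 lies below 0 under all 3.

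Ratios of FPKM within a library do not depend on scaling between libraries. Of 17 such ratios computed, each tested with an exact two-sided permutation test over the 6 libraries, those whose groups did not overlap reached 0.1, the smallest p the design allows, and 0.131 after Benjamini-Hochberg adjustment. None could pass 0.05, so they are read as values in each library.

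The ratio of Ucp2 to Ucp3 was 0.151, 0.190 and 0.168 in the controls and 0.561, 0.632 and 0.840 in the knockouts. Every knockout was above every control, and Ucp3 was the more abundant transcript in all 6 libraries. The means of 0.170 ± 0.0197 and 0.678 ± 0.145 (SD, n = 3 each) differed by 1.98 on the log2 scale (exact permutation p = 0.1).

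The ratio of Lpl to Gpihbp1 was 2.12, 1.87 and 1.56 in the controls and 4.67, 4.61 and 4.26 in the knockouts, with no overlap and a log2 difference of 1.30 (exact permutation p = 0.1). The ratio of Lpl to its inhibitor Angptl4 was 17.7, 15.3 and 19.1 in the controls and 19.3, 16.0 and 16.7 in the knockouts. These groups overlapped, with means of 17.3 ± 1.87 and 17.3 ± 1.74 (SD, n = 3 each, exact permutation p = 1), which does not show that the ratio is the same.

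The ratio of Slc27a1 to Slc27a4 was 5.98, 6.08 and 9.70 in the controls and 4.62, 5.19 and 4.51 in the knockouts. The knockouts were all lower, with control 3 far above the rest, and the log2 difference was -0.57 (exact permutation p = 0.1). Without control 3 it was -0.34. The ratio of Cd36 to Fabp3 was 0.0922, 0.0837 and 0.0666 in the controls and 0.0572, 0.0544 and 0.0468 in the knockouts. It was again lower in every knockout, with a log2 difference of -0.61 (exact permutation p = 0.1).

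**Figure D3:**
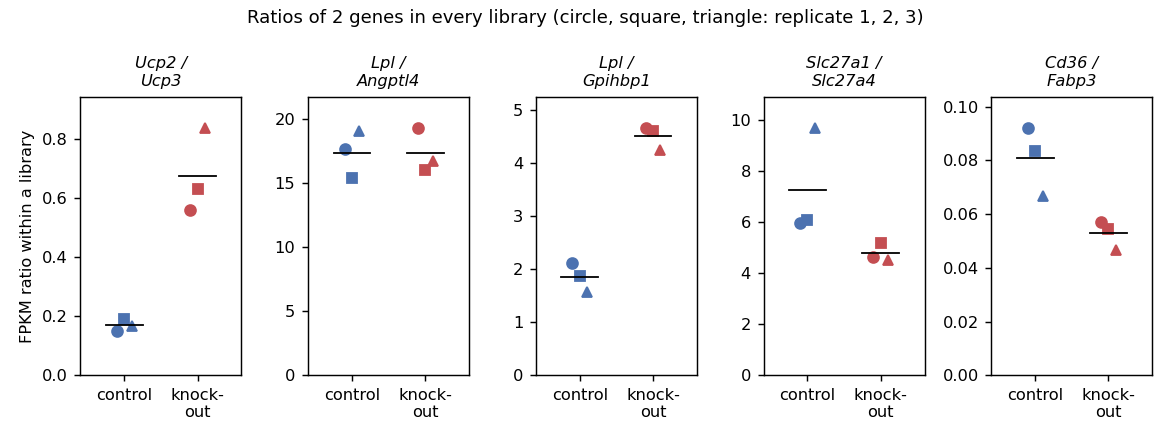
FPKM ratio of 5 pairs of genes in each library (circle, square and triangle for replicates 1, 2 and 3), with a line at each group mean and axes that start at 0. Ucp2 over Ucp3 and Lpl over Gpihbp1 are higher in all knockouts, Slc27a1 over Slc27a4 and Cd36 over Fabp3 are lower, and Lpl over Angptl4 overlaps.

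Several of these genes are also expressed outside muscle fibres: Gpihbp1 and Cd36 in capillary endothelium, Lpl and Cd36 in adipocytes, and Ucp2 and Lpl in macrophages. In whole tissue, fewer cells of a type and less RNA per cell cannot be told apart. Of 12 endothelial markers, 0 rose and 1 fell, against 24.5% raised and 10.1% lowered over all tested genes. The 1 that fell was Egfl7, from 36.5 ± 0.783 to 30.8 ± 0.735 FPKM. No endothelial marker was called lowered with no trend, without any 1 control or without knockout 2. Pecam1 measured 23.7 ± 1.01 FPKM in controls and 22.3 ± 1.99 FPKM in knockouts, and Cdh5 16.6 ± 1.84 and 16.9 ± 1.30 FPKM (SD, n = 3 each). The summed endothelial markers ranged from 133 to 141 FPKM in controls and from 125 to 137 FPKM in knockouts. Their median log2 change was 0.04 as deposited and -0.16 under median-of-ratios scaling, where 3 of the 12 fell. Quantile normalization gave -0.14, with 2 lowered.

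Gpihbp1 over the endothelial sum overlapped between groups, at 0.189 ± 0.00865 in controls and 0.180 ± 0.00923 in knockouts (SD, n = 3 each, exact permutation p = 0.4). Cd36 over the same sum was higher in every knockout, at 0.390 ± 0.0422 and 0.538 ± 0.0816 (exact permutation p = 0.1). Lpl over it was also higher in every knockout, with a log2 difference of 1.23 (exact permutation p = 0.1).

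Most adipocyte markers were higher, with 7 of 9 tested raised, against 24.5% of all tested genes, and 0 lowered. Their median log2 change was 0.97. Median-of-ratios scaling gave 7 raised and 1 lowered, and quantile normalization 7 and 0. Adipoq, which encodes adiponectin, rose from 10.7 ± 0.401 to 20.8 ± 1.62 FPKM and Cfd, the adipocyte serine protease adipsin, from 51.7 ± 3.84 to 117 ± 2.25 FPKM. Fabp4, which capillary endothelium also expresses, measured 333 ± 2.86 and 317 ± 28.9 FPKM (SD, n = 3 each) and was not called. The adipocyte sum ranged from 410 to 426 FPKM in controls and from 468 to 533 FPKM in knockouts. Without Fabp4, a choice made after seeing the data, it ranged from 78.4 to 89.1 FPKM and from 181 to 187 FPKM, a mean 2.18-fold higher.

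That choice changed what the ratios showed. Lpl over the adipocyte sum was 0.115 ± 0.0135 in controls and 0.216 ± 0.00447 in knockouts (SD, n = 3 each, exact permutation p = 0.1). Without Fabp4 in the sum it was 0.568 ± 0.0533 and 0.589 ± 0.0333, and the groups overlapped (exact permutation p = 0.6). Cd36 over the sum overlapped, with a log2 difference of 0.16 (exact permutation p = 0.4), and without Fabp4 it was lower in every knockout, with -0.71 (exact permutation p = 0.1). Ucp2 over the sum was higher in every knockout, with log2 differences of 1.39 and, without Fabp4, 0.52. Lpl itself averaged 2.26-fold higher and the sum without Fabp4 2.18-fold. Most of that sum was Cfd, which averaged 2.27-fold higher. The part of adipocytes in the level of Lpl, Cd36 or Angptl4 was not tested.

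Of 10 tested macrophage markers 2 were called raised and 0 lowered, a share below the 24.5% raised over all genes. No marker of this list was called raised under median-of-ratios scaling, with no trend, without control 1, without control 3 or without knockout 2, and 1 was without knockout 3. C1qa, a complement subunit and 1 of the 2, measured 27.7 ± 2.28 FPKM in controls and 34.5 ± 2.71 FPKM in knockouts. C1qb, another, measured 27.0 ± 0.421 and 34.1 ± 5.79 FPKM, and Lyz2, lysozyme, measured 71.1 ± 7.09 and 77.1 ± 4.11 FPKM (SD, n = 3 each), and neither C1qb nor Lyz2 was called. The macrophage sum ranged from 155 to 177 FPKM in controls and from 182 to 208 FPKM in knockouts. Ucp2 over it was 0.0448 ± 0.00358 in controls and 0.119 ± 0.0202 in knockouts, higher in every knockout by 1.39 on the log2 scale (exact permutation p = 0.1). Lpl over it differed by 0.93 (exact permutation p = 0.1), and Cd36 over it overlapped between groups (exact permutation p = 0.5).

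Markers of B and T cells were near 0 in controls and higher in knockouts. Of 9 tested, 9 were raised, against 24.5% of all tested genes. The list summed to 0.673 to 1.12 FPKM in controls and 24.6 to 27.5 FPKM in knockouts. Ms4a1 and Cd79a, which define B cells, were listed at 0 in all controls, and Cd79a reached 5.87 ± 0.904 FPKM in knockouts. Lck, a T cell kinase, measured 0.0543 ± 0.0941 and 3.66 ± 0.990 FPKM, and Cd2 0.395 ± 0.284 and 3.51 ± 0.969 FPKM (SD, n = 3 each). These cells express Ucp2, and their part in its level was not tested.

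Muscle itself was present in all libraries. Of 10 muscle fibre markers 4 rose and 6 fell, against 24.5% raised and 10.1% lowered over all tested genes. The list summed to 75414 to 79013 FPKM in controls and 39038 to 41431 FPKM in knockouts. Tnnt3, Myl1 and Acta1, which encode fast troponin T, myosin light chain and skeletal actin and had the highest levels, all fell, Tnnt3 from 20133 ± 1079 to 7841 ± 182 FPKM, Myl1 from 16879 ± 855 to 10094 ± 310 FPKM and Acta1 from 15446 ± 797 to 8538 ± 386 FPKM (SD, n = 3 each). The 4 that rose were Des, Actn2, Mb and Myh1. Mb went from 3104 ± 146 to 4019 ± 111 FPKM and Actn2 from 205 ± 9.73 to 435 ± 23.5 FPKM (SD, n = 3 each). Genes that fell made up most of the sum, so it does not describe the list as a whole. The list's median log2 change was -0.80, and 0.16 after quantile normalization, with 4 raised and 4 lowered. Of 9 slow and oxidative fibre markers 2 rose, near the share raised over all tested genes, and 5 fell. Only 1 rose when any 1 library other than control 1 was left out. Their sums were 1020 to 1052 FPKM in controls and 977 to 981 FPKM in knockouts. Myl2 measured 312 ± 7.90 and 325 ± 4.98 FPKM and was not called. Myl3 fell from 174 ± 5.98 to 128 ± 2.86 FPKM, and Myh2, the fast oxidative IIa myosin, rose from 148 ± 9.77 to 232 ± 2.47 FPKM. The muscle fibre sum was lower in every knockout while Fabp3 was higher, and the part of fibre content in either was not tested.

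**Figure D4:**
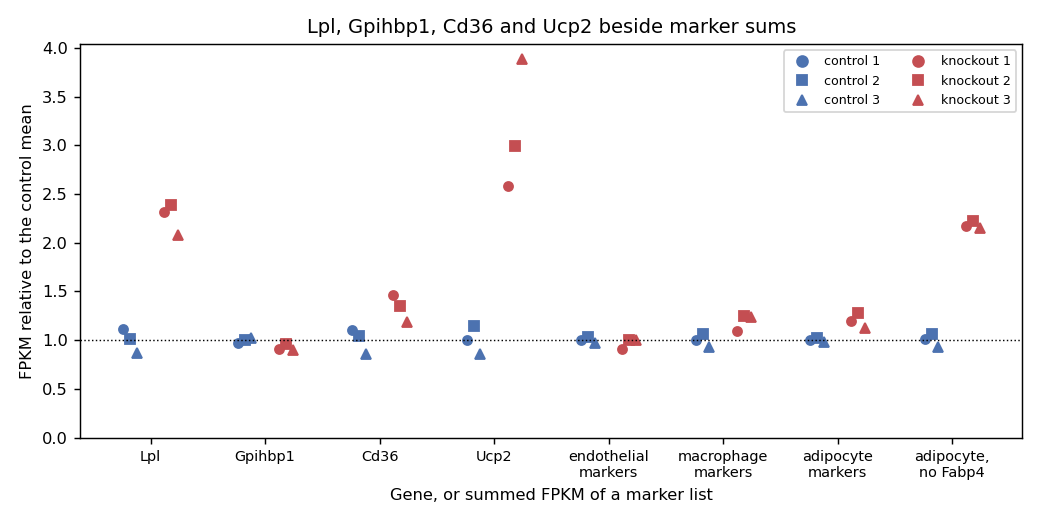
FPKM of Lpl, Gpihbp1, Cd36 and Ucp2 and summed FPKM of 3 marker lists, the adipocyte list also without Fabp4, each relative to its control mean, with a point for each library. Lpl and the adipocyte sum without Fabp4, most of which is Cfd, reach about the same height in knockouts. Gpihbp1 stays beside the endothelial sum, and Ucp2 is above all the sums.

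Other genes of the pathway were examined in 7 lists, of whose 83 genes 62 were tested, 25 raised and 9 lowered, against 24.5% raised and 10.1% lowered over all tested genes. Median-of-ratios scaling gave 16 raised and 13 lowered, against 14.8% and 17.3% over all genes. The counts of single lists are small and are read against these shares. The lists were drawn up with earlier results of these data known, so their counts are descriptions and not tests. Of 14 tested genes of fatty acid handling that respond to fatty acids in muscle, 11 rose and 0 fell, and their median log2 change was 0.59, which is 0.38 above that of all genes. With median-of-ratios scaling 8 of them rose and 1 fell, and after quantile normalization 10 rose and 0 fell. Acadl, the long-chain acyl-CoA dehydrogenase, rose from 121 ± 4.67 to 210 ± 7.22 FPKM, and Plin5, a lipid droplet coat protein, from 4.38 ± 0.0776 to 9.23 ± 0.547 FPKM. Acot2, a mitochondrial acyl-CoA thioesterase, rose from 2.47 ± 0.608 to 4.97 ± 0.919 FPKM (SD, n = 3 each).

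Genes of lipoprotein lipase maturation and processing, of its cofactors and of lipoprotein receptors were mixed. Of 10 tested, 5 rose and 1 fell, but 1 and 1 under median-of-ratios scaling and 2 and 1 after quantile normalization. Lmf1, the maturation factor the enzyme needs to fold, rose from 5.93 ± 0.459 to 10.7 ± 1.37 FPKM (limma adjusted p = 0.00208). Vldlr, a lipoprotein receptor that takes up triglyceride-rich particles, fell from 30.2 ± 4.84 to 13.7 ± 0.276 FPKM (limma adjusted p = 3.07e-04). Lrp1, another lipoprotein receptor, rose from 32.0 ± 6.34 to 49.9 ± 4.69 FPKM and Pcsk6, a proprotein convertase, from 4.51 ± 0.187 to 6.42 ± 0.243 FPKM (SD, n = 3 each).

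Of 8 other fatty acid carriers tested, 2 rose and 0 fell, near the share raised over all genes, with a median log2 change of 0.19. The 2 were Got2, the mitochondrial aspartate aminotransferase that also binds fatty acids at the plasma membrane, from 148 ± 6.20 to 226 ± 15.2 FPKM, and Dbi, the acyl-CoA binding protein, from 160 ± 2.73 to 260 ± 8.08 FPKM. Median-of-ratios scaling also called 2 of the list lowered. Of 5 long-chain acyl-CoA synthetases tested, Acsl1 rose from 76.6 ± 5.77 to 107 ± 1.30 FPKM and Acsl4 from 3.98 ± 1.10 to 8.78 ± 1.11 FPKM (SD, n = 3 each), with 2 raised and 0 lowered under all 3 scalings.

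Of 10 genes of CD36 palmitoylation and vesicle traffic, 2 rose, again near the share raised over all genes, and 2 fell, and 1 rose and 3 fell under both other scalings. Lypla1, an acyl-protein thioesterase, rose from 45.7 ± 5.93 to 67.3 ± 2.06 FPKM. Selenok, listed as Selk, the selenoprotein cofactor of a palmitoyl transferase, fell from 31.7 ± 0.776 to 19.7 ± 3.42 FPKM. Rab8a, a vesicle GTPase, rose from 6.01 ± 2.11 to 9.66 ± 0.943 FPKM, and Tbc1d1, a Rab GTPase-activating protein of muscle, fell from 11.1 ± 1.42 to 8.44 ± 0.856 FPKM (SD, n = 3 each). The last 2 lay at the threshold, with limma adjusted p of 0.0493 and 0.049. With the columns deposited as counts, an alternative chosen after seeing the data, 0 of the list were raised and 1 lowered. Lypla1 was thus not called there.

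Of 5 other uncoupling and adenine nucleotide carriers tested, 1 rose and 3 fell, as under median-of-ratios scaling, while quantile normalization left 2 lowered. Likewise 2 were lowered with no filter on low values, with a replicate block and when any 1 library was left out. Slc25a4, the adenine nucleotide translocase of muscle, fell from 1836 ± 107 to 1267 ± 23.0 FPKM, whereas its paralog Slc25a5 rose from 27.1 ± 0.862 to 52.1 ± 1.81 FPKM. Slc25a30 fell from 3.99 ± 0.314 to 1.505 ± 0.187 FPKM and Slc25a27 from 2.77 ± 0.237 to 1.87 ± 0.306 FPKM (SD, n = 3 each). Slc25a27 lay at the threshold, with a limma adjusted p of 0.0489. Ucp1, the uncoupling protein of brown fat, was listed at 0 in all 6 libraries.

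Of 10 nuclear receptors and coactivators of the PPAR pathway 2 rose and 3 fell, and 1 rose and 3 fell under both other scalings. Rxrg, a retinoid X receptor of muscle, fell from 40.5 ± 2.83 to 13.8 ± 0.530 FPKM (limma adjusted p = 9.82e-06) and its relative Rxra from 23.4 ± 1.92 to 15.1 ± 1.78 FPKM. Ppargc1a, the coactivator PGC-1α, fell from 5.77 ± 1.10 to 3.17 ± 1.01 FPKM. Pparg, the adipocyte PPAR, rose from 1.91 ± 0.314 to 3.44 ± 1.10 FPKM (SD, n = 3 each, limma adjusted p = 0.0424). Only 1 of the list rose with no filter on low values, with a replicate block, without any 1 control and without knockout 3.

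**Figure D5:**
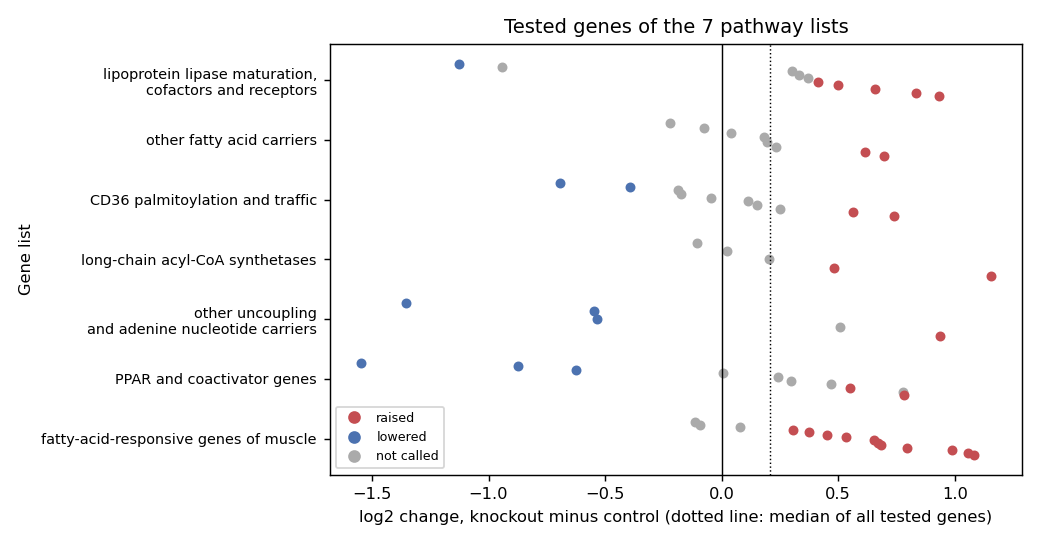
The log2 change, knockout minus control, of each tested gene in the 7 pathway lists, coloured by call (limma adjusted p under 0.05), with a dotted line at the median of all tested genes. The fatty-acid-responsive list lies mostly to the right of that line, with 11 of 14 raised, and the carrier list with Slc25a4 and Slc25a30 has 3 of 5 lowered.

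Among 5779 other genes that averaged at least 5 FPKM, the patterns over the 6 libraries most like that of Lpl were those of Rb1, Adck3 and Acss2, each with a Pearson r of 0.999 on the log2 scale. Rb1 measured 3.69 ± 0.480 FPKM in controls and 9.74 ± 0.597 FPKM in knockouts, and Acss2, the cytosolic acetyl-CoA synthetase, 10.2 ± 1.40 and 30.9 ± 2.30 FPKM (SD, n = 3 each). The patterns most like that of Ucp3 were those of Pcx, pyruvate carboxylase, with r = 0.987, and March6 and Tnks2, both with r = 0.982. These correlations span 2 groups and are descriptions of the same libraries.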

How the data were processed

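Ribosomal RNA was removed from total RNA of powdered quadriceps, and libraries were made with a stranded total RNA kit. Per the submitters' processing notes, the authors used cutadapt 1.9.3, HISAT2 2.0.4, build mm10, Cufflinks and Cuffdiff, the last 2 with no version given in the sources used here. The authors deposited FPKM per gene and library, and how these were scaled between libraries is not stated. The columns that the authors deposited as counts are a scaled signal: 94.0% to 95.4% of low values were whole multiples of 1 constant per library (tolerance 0.1), from which fragments were estimated. They served as an alternative, and no count model was run.

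Of 22481 symbols, 79 had more than 1 row, which were summed, and 1 line of the table was emptied for this work. Genes averaging at least 0.5 FPKM were fitted by limma 3.58.1 in R 4.3.3 on log2(FPKM + 0.1), with empirical Bayes moderation and a mean-variance trend, two-sided and adjusted over 11659 genes. The fit was tested on simulated data with far fewer changed genes than this table, so that test does not measure its error rates here. Ratios within a library used exact permutation tests. Positions are from GENCODE M21 and promoters from RefSeq, where 6 of the 9 genes had an entry and Lpl, Gpihbp1 and Angptl4 had none.

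The genes, lists and comparisons were chosen with earlier results of these data known. All 9 genes are named, with Fbxw7. Each pathway list names up to 4 called genes with the largest log2 change whose higher mean is at least 1 FPKM. Each marker list names its 3 highest, and likeness the 3 highest r. Ms4a1, Ucp1, Des, Actn2, Mb, Myh1 and Esrra were added after their values were seen. Of the genes this rule picks, 1 is not reported here. Alternatives covered the pseudocount, filter, scaling, trend, threshold, replicate block and leaving out each library. Those chosen after seeing the data were the scaled signal and the adipocyte sum without Fabp4.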

Additional observations from a re-analysis of the deposited data

How the results depend on the processing

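Of the 9 genes, Lpl, Angptl4, Fabp3 and Ucp2 were called under all 16 alternatives, and no gene changed direction under any of them. At a threshold of 0.01, 4 were raised and 0 lowered. The number lowered was 1 as reported, 2 under median-of-ratios scaling, 0 without a filter on low values, 0 without a trend, and 0 to 1 when 1 library was left out. Leaving out 1 library gave 5 to 6 raised. The scaled count columns, chosen after seeing the data, gave 7 raised and 1 lowered, against 3548 raised and 1376 lowered over all tested genes. Over all tested genes, 2860 were raised and 1177 lowered as reported. Median-of-ratios scaling gave 1724 and 2018, quantile normalization 1715 raised, and a threshold of 0.01 gave 1460 and 708. Of the pathway lists 25 genes were raised, and 16 under median-of-ratios scaling. These counts are of numbers, not of shared genes, and the cause of the differences was not tested.

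The log2 difference of Lpl over Angptl4 was -0.00013 as reported, 0.0273 with 0.1 FPKM added to both genes, -0.215 in the scaled count columns, and -0.0859 to 0.0704 when 1 library was left out. FPKM per 1000 scaled counts varied between libraries for 3 genes, from 23.4 to 23.5 in controls and 24.8 to 26.1 in knockouts for Lpl, 43.2 to 59.0 and 42.2 to 49.1 for Angptl4, and 34.4 to 42.7 and 39.5 to 46.1 for Ucp2. For the other 6 the highest was at most 1.04 times the lowest, and the cause was not tested. Leaving out 1 library lowered the number raised from 5 to between 3 and 4 for the lipoprotein lipase list, and from 2 to 1 in 5 of 6 cases for the CD36 traffic list. Cd36 over the adipocyte sum turned from 0.16 to -0.71 without Fabp4. Same-numbered libraries had correlations of -0.07, 0.20 and 0.18 between their deviations from the group means. Those of libraries with different numbers ranged from -0.29 to 0.18. With 3 libraries per group, these values cannot show whether the numbers pair the libraries. A replicate block gave 7 raised and 1 lowered of the 9. With 46 to 62 fragments in knockout 1, Angptl4, Slc27a4 and Gpihbp1 have the least depth.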
